A study of Homo sapiens with 4 samples.

Results

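Paraspeckles are small nuclear bodies that form on the long noncoding RNA (lncRNA) NEAT1 and are held together by RNA-binding proteins of the DBHS family (SFPQ, NONO and PSPC1) and by RBM14. The 7 genes described here were NEAT1, MALAT1 and KCNQ1OT1, which make nuclear lncRNAs, and SFPQ, NONO, PSPC1 and RBM14, which make paraspeckle proteins. They were 7 of 62696 gene rows, picked by symbol, and all 7 were among the 23344 genes that averaged 10 or more normalized counts across libraries and were tested. NEAT1 and MALAT1 were chosen because their values were lower in the knockdown libraries, and KCNQ1OT1 joined them with its values in view, so the contrast of these 3 RNAs is given as a description with no test. The 4 protein genes were chosen by function. Levels are normalized counts, which are the reads of a gene divided by 1 factor per library, and differences are KD minus WT on a log2 scale. A gene was called higher or lower where its Benjamini-Hochberg adjusted p, from a limma fit of all tested genes, was under 0.05.

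Total RNA of OVCAR3 cells, an established human line of high-grade serous ovarian carcinoma, was sequenced as 4 libraries after depletion of ribosomal RNA. There were 3 libraries of cells with a short hairpin RNA against the pseudogene transcript ANAPC1P2 (KD 1, 2 and 3, named as sets by the labels) and 1 library of wild-type cells (WT). No library was labelled as carrying a non-targeting hairpin, so carrying a hairpin and losing ANAPC1P2 cannot be told apart. Nothing in the labels says whether the KD sets were separate cultures, so the spread behind each p-value may be technical, and the WT group has no spread of its own. The counted reads were 48443589, 56216398 and 42871815 in KD 1, 2 and 3, against 27868718 in WT. The target was scarcely read: one of its 2 gene identifiers had 0 reads in every library, and the other had 0, 11 and 8 reads in KD 1, 2 and 3, against 14 in WT. All 12 epithelial and serous markers were read in every library. Of these, 7 were higher in all KD libraries (EPCAM, KRT7, KRT8, KRT18, KRT19, SOX17 and ESR1). The other 5 were lower in all of them (CDH1, PAX8, WT1, MUC16 and MSLN). The sum of all 12 was 113496 to 126790 normalized counts in KD, against 564413 in WT, of which 458890 were MUC16. WT held RNA that KD lacked: HBB, HBA1, HBA2 and HBD had no reads in KD, and the summed level of 6 erythroid markers was 1.55 to 3.79 normalized counts in KD, against 14706 in WT. The summed level of 8 leukocyte markers was 92.5 to 120.4 normalized counts in KD, with LYZ, CD68 and FCGR3B at 0 there, against 943 in WT. Of 8 neural markers 4 were lower and 2 higher in all KD libraries, with a sum of 5613 to 6395 in KD, against 5599 in WT. NEUROD6 was at 0 in KD, against 2374 in WT, while MBP, which made up nearly all of the KD sum, was called higher at 5732 ± 406 in KD (SD, n = 3), against 2595 in WT. Of 6 fibroblast markers 4 were lower and 1 higher in all KD libraries (sum 507 to 634 in KD, against 1155 in WT; COL3A1 at 0 in KD). The part of these markers' source in the results below was not tested. In bulk RNA, fewer cells of a type and less RNA per cell cannot be told apart.

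NEAT1 is transcribed as a short polyadenylated form and a long form that starts at the same place and spans the whole gene. The long form is the scaffold of the paraspeckle. The DBHS proteins bind along it and keep it stable, while RBM14 helps build the full body. MALAT1, from the gene next to NEAT1, gathers in nuclear speckles, the neighbouring bodies rich in splicing factors. KCNQ1OT1 is an unspliced RNA read from inside the imprinted KCNQ1 gene on the opposite strand, and in development it silences genes around it on the chromosome it is made from. All 3 RNAs stay mostly in the nucleus, and depletion of ribosomal RNA keeps such transcripts in a library whether or not they carry a poly(A) tail.

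The long form of NEAT1 and MALAT1 end alike, by a route that ordinary messengers do not use. RNase P cuts each one upstream of a tRNA-like RNA, and the new 3′ end folds into a triple helix in which U-rich stretches clasp an A-rich tail. These ends are shown because the members share them and because the genes of this route were read below. The last 100 bases before each cut and the tRNA-like RNA after it are given 5′ to 3′ as DNA, from the transcripts of GENCODE 29 on GRCh38; capitals mark the U-rich stretches (T in DNA) and the A-rich tail. NEAT1's end lies at chr11:65445441-65445540, plus strand, and its tRNA-like RNA at chr11:65445541-65445598, plus strand. MALAT1's end lies at chr11:65506017-65506116, plus strand, and its tRNA-like RNA at chr11:65506117-65506173, plus strand.
NEAT1 3′ end: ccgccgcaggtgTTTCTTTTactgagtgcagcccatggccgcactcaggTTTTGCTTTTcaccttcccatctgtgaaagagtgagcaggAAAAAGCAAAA
MALAT1 3′ end: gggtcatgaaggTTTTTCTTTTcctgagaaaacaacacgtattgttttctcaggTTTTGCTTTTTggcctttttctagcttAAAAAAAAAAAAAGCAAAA
NEAT1 tRNA-like RNA: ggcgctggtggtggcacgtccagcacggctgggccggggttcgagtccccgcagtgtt
MALAT1 tRNA-like RNA: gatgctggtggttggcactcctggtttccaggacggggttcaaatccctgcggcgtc

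In a global alignment, the 3′ ends matched at 69 of 109 columns (63.3%) and the tRNA-like RNAs at 41 of 61 columns (67.2%). The runs TTTCTTTT, TTTTGCTTTT and AAAAAGCAAAA stand in both 3′ ends. They were taken from the marked stretches of NEAT1, and none of them contains another. Read on the RNA strand only, they were held by 1.25%, 0.0859% and 0.0462% of the last 100 bases of 203677 annotated transcripts of at least 100 bases. All 3 together stood in the last 100 bases of 1 annotated transcript, from NEAT1, their source, so that match was fixed in advance. The annotated MALAT1 transcripts run past the cut. The gene of MALAT1's tRNA-like RNA had 0 reads in every library, and that of NEAT1 had 0, 0 and 6 reads in KD 1, 2 and 3, against 2 in WT, so neither could be compared at this depth.

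NEAT1 was far lower in every KD library than in the WT library, where it was one of the most abundant RNAs. The gene (ENSG00000245532) is 1 exonic block of 22767 bases on chromosome 11, from 65422774 to 65445540, plus strand (GRCh38). It had 17876, 20674 and 15229 normalized counts in KD 1, 2 and 3, against 403171 in WT. The KD libraries lay close together and far below WT, at 17926.5 ± 2723 (SD, n = 3), which is 4.45% of the WT value or 22.5-fold lower, a log2 difference of -4.50. The reads behind these values were 18860, 26605 and 13699 in KD, against 362990 in WT. NEAT1 thus took 0.0389%, 0.0473% and 0.0320% of all counted reads in KD, against 1.30% in WT. By level it ranked 371, 245 and 502 among all genes in KD 1, 2 and 3, against 2 in WT. The values are per gene and pool both forms of NEAT1, so the long form cannot be told apart from the short one.

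MALAT1 was also lower in all KD libraries, by less. Its gene (ENSG00000251562) is 1 exonic block of 8829 bases, from 65497688 to 65506516 on the plus strand of chromosome 11, starting 52147 bases past the end of NEAT1. It had 1264, 1382 and 928 normalized counts in KD 1, 2 and 3, against 5226 in WT. No KD library came near WT, and their mean of 1191 ± 235 (SD, n = 3) was 22.8% of the WT value, 4.39-fold lower, a log2 difference of -2.15. MALAT1 ranked 6596, 6221 and 7665 by level in KD, against 1221 in WT. TALAM1, the antisense RNA of MALAT1, covers 7205 bases or 82.1% of it in RefSeq. It had 223, 187 and 218 normalized counts in KD, against 1072 in WT, a log2 difference of -2.36, given as a description like that of MALAT1. The library kit marks the strand, but no source used here gives the strand setting of the counting. Reads of the RNA and its antisense partner therefore cannot be told apart, and those over the shared bases may have been lost from both. The level and rank of MALAT1, and ratios to it, are uncertain to that extent. Inside a library, the ratio of TALAM1 to MALAT1 was 0.182 ± 0.050 in KD (SD, n = 3), against 0.205 in WT, less apart than the KD libraries among themselves, which ranged from 0.136 to 0.235.

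KCNQ1OT1, like NEAT1 and MALAT1, was below WT in every KD library, as were 52.2% of all tested genes. It is 1 exonic block of 91667 bases on the minus strand of chromosome 11, from 2608328 to 2699994 (ENSG00000269821). Its level was 9037, 12260 and 6220.1 normalized counts in KD 1, 2 and 3, against 27663 in WT. The KD libraries spread widely but stayed below WT, at 9172.5 ± 3022 (SD, n = 3), 33.2% of the WT value or 3.02-fold lower, a log2 difference of -1.65. KCNQ1, the potassium channel gene that holds it on the other strand and shares 121 exonic bases with it, had 0, 2 and 0 reads in KD, against 0 in WT. Reads of unspliced KCNQ1 RNA over KCNQ1OT1 are not measured by these counts, and their part was not tested.

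**Figure D1:**
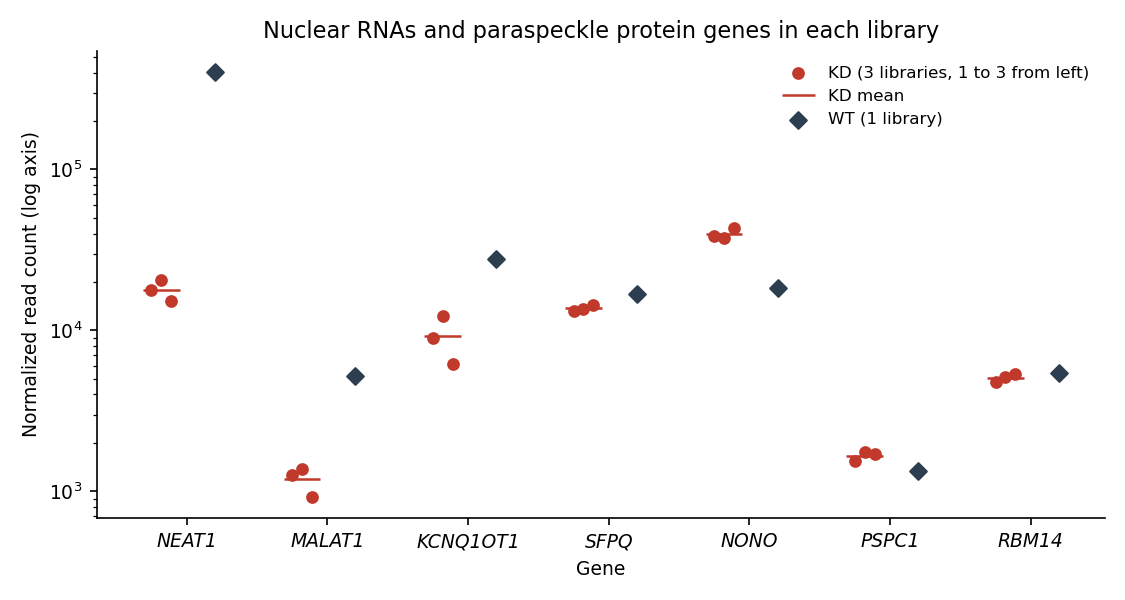
Normalized read counts (log axis) of the 7 genes in each library, with KD as circles and a line at the KD mean, and WT as a diamond. NEAT1, MALAT1 and KCNQ1OT1 lie lower in all 3 KD libraries, NONO and PSPC1 higher, and SFPQ and RBM14 a little lower.

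The 3 RNAs did not keep their proportions to each other. The ratio of NEAT1 to MALAT1 inside a library, which no scaling touches, was 14.1, 14.96 and 16.4 in KD 1, 2 and 3, against 77.1 in WT. The ratio of NEAT1 to KCNQ1OT1 averaged 2.04 ± 0.38 in KD (SD, n = 3), against 14.6 in WT. On these ratios KD and WT did not overlap, and NEAT1 was the RNA that stood lower relative to both others. Lack of overlap with the 1 WT library is common: all 3 KD libraries were above WT in 40% of tested genes and below it in 52.2%. NEAT1 and MALAT1 were chosen on this contrast, so the ratios are descriptions. Beside the median of all tested genes, which was -0.28, the 3 log2 differences were -4.22, -1.87 and -1.37.

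The lower levels of the 3 RNAs stood among lower levels of lncRNAs at large. Of 4446 tested lncRNAs, 53.4% were called lower and 6.32% higher, with a median log2 difference of -1.47. Of 14464 tested protein-coding genes, 24.7% were called lower and 45.9% higher, with a median of 0.28. All lncRNAs together took 1.29%, 1.40% and 1.17% of reads in KD 1, 2 and 3, against 5.28% in WT, and without NEAT1 1.25%, 1.35% and 1.14% in KD, against 3.98% in WT. MALAT1's difference was ordinary in this company: 1343 of the 4446 lncRNAs (30.2%) lay at or below it, and 1986 (44.7%) lay at or below KCNQ1OT1. NEAT1 stood further out, with 57 lncRNAs (1.28%) at or below it. Among the 175 tested lncRNAs with at least 1000 normalized counts in WT, 2 lay at or below NEAT1, which were STARD13-AS and NEAT1 itself. In that set 52 lay at or below MALAT1 and 94 at or below KCNQ1OT1. The cut uses the WT library alone, so it favours RNAs high in WT. It leaves out RNAs high in KD only, such as FIRRE (1658, 1264 and 1314 in KD 1, 2 and 3, against 398 in WT). These positions are descriptions.

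The 3 RNAs are longer than most lncRNAs, and differences varied with exonic length. Among the 126 tested lncRNAs of 8000 or more exonic bases, 94 were called lower (74.6%) and 5 higher, with a median log2 difference of -1.51. Among the 2003 lncRNAs under 1000 bases, 51.7% were called lower, with a median of -1.64. Protein-coding genes of 8000 or more bases were called lower in 37.7% and higher in 32.8% of 3108 cases, against 21.4% lower and 51.5% higher among the 206 under 1000 bases. Length was not tested as a term in the fit. Differences varied within the class of 8000 or more bases. LINC00632, of 28876 exonic bases in 9 blocks, had its highest difference, 2.65 in log2 terms, from 46.6 normalized counts in WT. CYTOR, of 17693 bases in 25 blocks, differed by 0.10. TUG1, of 10151 bases in 1 block, differed by -0.23. These genes were named after their values were seen. Each of the 3 members is, like TUG1, 1 block.

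**Figure D2:**
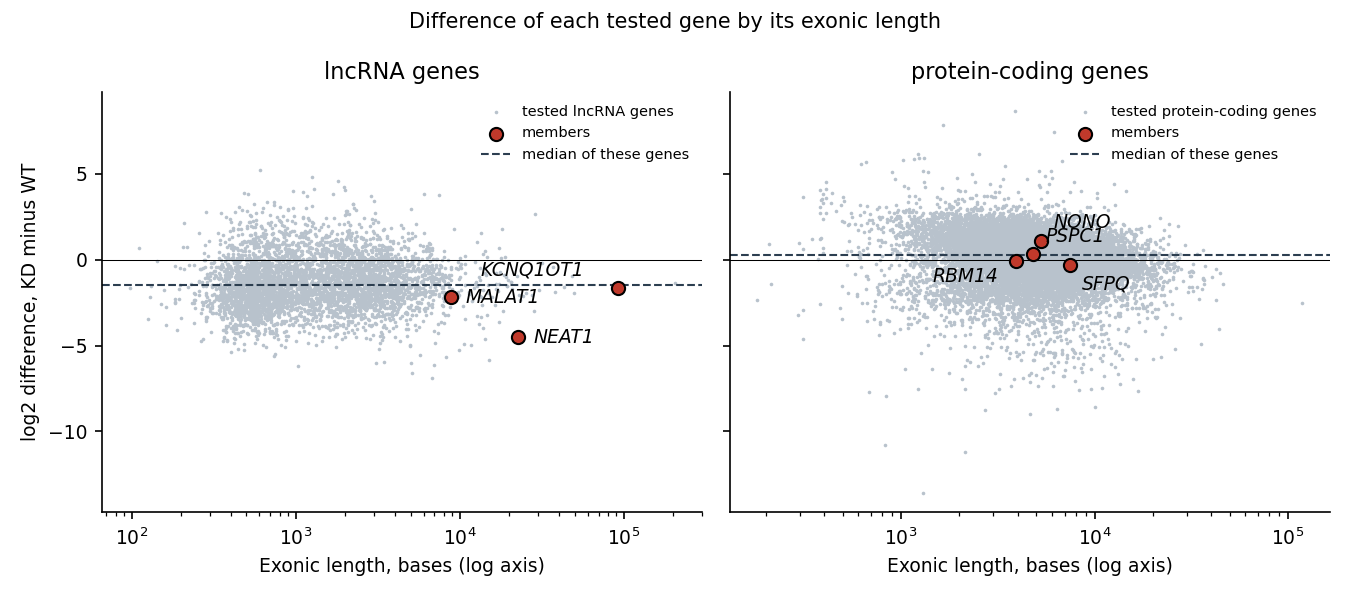
Log2 difference, KD minus WT, of every tested gene with an annotated length against its exonic length in bases (log axis), for lncRNAs on the left and protein-coding genes on the right; the dashed line is the median of the genes in the panel. NEAT1 at -4.50 lies far below the lncRNA median of -1.47, MALAT1 and KCNQ1OT1 lie just below it, and the 4 protein genes lie in the middle of the protein-coding cloud.

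The 3 KD libraries held the RNAs in 1 order, KD 2 above KD 1 above KD 3. The ratio of KD 2 to KD 3 was 1.36 for NEAT1 (exact 95% interval 1.33 to 1.39), 1.49 for MALAT1 (1.37 to 1.62) and 1.97 for KCNQ1OT1 (1.91 to 2.03); these intervals cover counting error only. The coefficient of variation over KD was 15.2%, 19.8% and 32.9% for NEAT1, MALAT1 and KCNQ1OT1. The 4 protein genes varied less, between 3.73% for SFPQ and 7.51% for NONO, and none of them stood in that order. The same order was found in 219 of 817 lncRNAs whose KD mean reached 100 normalized counts (26.8%) and in 739 of 11483 such protein-coding genes (6.44%). It is also the order of library depth, and the part of depth in it was not tested. Scaled to the total of counted reads instead, KD 2 stood above KD 3 by 1.48, 1.62 and 2.15 times for NEAT1, MALAT1 and KCNQ1OT1.

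**Figure D3:**
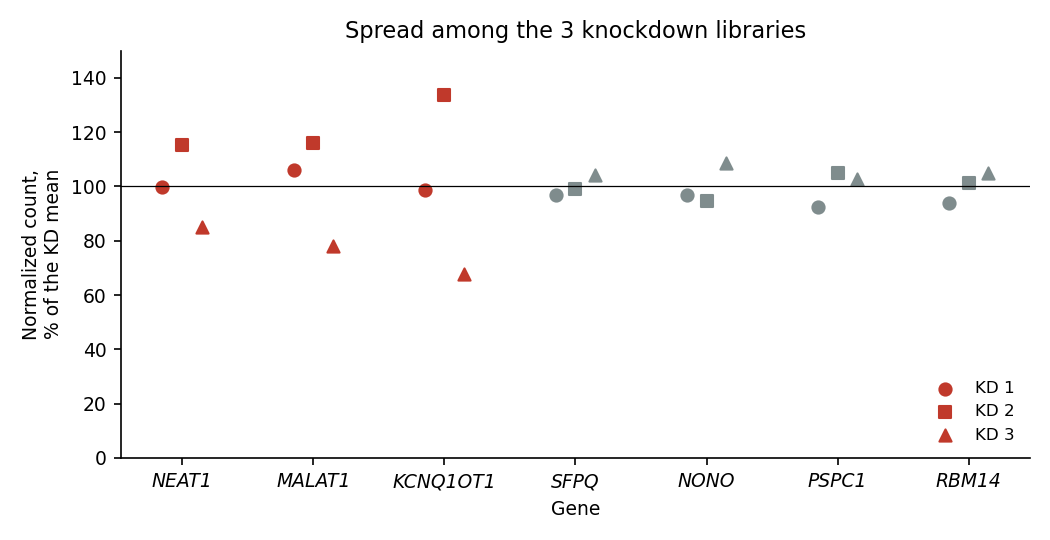
Normalized counts of the 7 genes in KD 1 (circle), KD 2 (square) and KD 3 (triangle) as a percentage of the KD mean, with lncRNAs in red and protein genes in grey. The lncRNAs spread from KD 2 down to KD 3, most widely for KCNQ1OT1, while the protein genes stay near 100.

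Of the 4 protein genes, 2 were called higher and none lower in KD, NONO by more than PSPC1, while SFPQ and RBM14 did not pass the threshold. Among all tested genes, 31.4% were called higher and 36.3% lower, 67.7% in either direction. Of protein-coding ones, 45.9% were called higher and 24.7% lower. By position alone, NONO and PSPC1 had all 3 KD libraries above WT, as did 40% of tested genes, and SFPQ and RBM14 had all 3 below, as did 52.2%. A count of 2 of 4 beside such a background is no result about paraspeckle proteins as a group. Their median log2 difference was 0.11, against 0.28 for all protein-coding genes. When the libraries were scaled to equal read totals instead, which moves the median of all genes by -0.56, the median of the 4 genes was -0.45. At that scaling 1 was called higher and 2 lower, beside 20.3% and 53.6% of all tested genes and 29.8% and 44.3% of protein-coding ones.

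NONO, the DBHS partner that pairs with SFPQ or PSPC1 and also acts in transcription and splicing, rose in KD. The gene lies on chromosome X from 71283192 to 71301168, plus strand (ENSG00000147140). It had 38424, 37420 and 43004 normalized counts in KD 1, 2 and 3, against 18382 in WT. Every KD library was above WT, the KD mean of 39616 ± 2977 (SD, n = 3) was 2.16-fold the WT value, and the log2 difference of 1.11 with a standard error of 0.14 passed the threshold (limma, adjusted p = 0.000801). NONO was still higher at equal read totals, by 0.54 in log2 terms (limma, adjusted p = 0.00266).

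SFPQ, the DBHS protein that NEAT1 needs for its stability, was slightly lower in KD without passing the threshold. The gene lies on chromosome 1 from 35176378 to 35193148, minus strand (ENSG00000116560). It had 13283, 13601 and 14286 normalized counts in KD 1, 2 and 3, against 16725 in WT. The groups did not overlap, with a KD mean of 13723 ± 512 (SD, n = 3), and the log2 difference was -0.29 with a standard error of 0.11 (limma, adjusted p = 0.0536). SFPQ passed the threshold in edgeR's quasi-likelihood test (adjusted p = 0.0479), in DESeq2 (adjusted p = 0.00848) and at equal read totals, where its difference was -0.85 (limma, adjusted p = 4.40e-04). Beside the median of all tested genes, SFPQ stood at -0.006 as deposited and -0.013 at equal read totals. The ratio of NONO to SFPQ inside a library, which no scaling touches, was 2.89, 2.75 and 3.01 in KD 1, 2 and 3, against 1.10 in WT.

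PSPC1, the DBHS protein with which paraspeckles were first found, was called higher by a small margin that the scaling reversed. Its gene lies on chromosome 13 from 19674752 to 19783019, minus strand (ENSG00000121390). Levels were 1537, 1749 and 1713 normalized counts in KD 1, 2 and 3, against 1338 in WT. The KD mean of 1667 ± 113 (SD, n = 3) was 1.25-fold the WT value, with a log2 difference of 0.31 and a standard error of 0.11 (limma, adjusted p = 0.0473). The difference was -0.25 at equal read totals (limma, adjusted p = 0.102). The call was also lost without KD 2 (limma, 0.28, adjusted p = 0.0942) and without KD 3 (limma, 0.29, adjusted p = 0.0915).

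RBM14, a protein with a prion-like domain that the full paraspeckle needs, did not pass the threshold. Its gene lies on chromosome 11 from 66616582 to 66627347, plus strand (ENSG00000239306). It had 4766, 5137 and 5341 normalized counts in KD 1, 2 and 3, against 5417 in WT. The highest KD library was close to WT, and the log2 difference was -0.09 with a standard error of 0.11 (limma, adjusted p = 0.449). It was called lower at equal read totals, at -0.66 (limma, adjusted p = 0.00175). Beside the median of all tested genes, RBM14 stood at 0.19 as deposited and 0.18 at equal read totals. A readthrough transcript into the next gene, RBM14-RBM4, shares 432 exonic bases with RBM14 and had 76, 106 and 108 reads in KD 1, 2 and 3, against 314 in WT. Its ratio to RBM14 was 0.0179 ± 0.0040 in KD (SD, n = 3), against 0.0644 in WT.

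Set per kilobase of exon, the order of the 7 genes differed between KD and WT. In KD it ran from NONO at 7486 ± 562 normalized counts per kilobase (SD, n = 3) through SFPQ at 1848 ± 69.0, RBM14 at 1291 ± 74.1, NEAT1 at 787 ± 120 and PSPC1 at 346 ± 23.5 to MALAT1 at 135 ± 26.7 and KCNQ1OT1 at 100.1 ± 33.0. MALAT1 and KCNQ1OT1, neighbours at the end of that order, overlapped in their KD libraries, and the others did not overlap with their neighbours. In WT, NEAT1 came first with 17709 normalized counts per kilobase, ahead of NONO with 3474, SFPQ with 2252, RBM14 with 1376, MALAT1 with 592, KCNQ1OT1 with 302 and PSPC1 with 278. With 1 WT library, no spread can be set beside that order. The lengths are those of the whole NEAT1 gene, so its level per kilobase is understated to the extent that the reads come from the short form. MALAT1's level per kilobase is understated to the extent that reads over TALAM1 were lost.

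Other paraspeckle proteins, like protein-coding genes at large, were more often called higher than lower in KD under the deposited scaling. At equal read totals they were called higher as often as lower, while protein-coding genes at large were more often called lower. Of 27 on the list, all tested, 16 were called higher, 5 lower and 6 neither, with a median log2 difference of 0.57, against -0.28 for all tested genes and 0.28 for protein-coding ones. Of all tested genes 31.4% were called higher and 36.3% lower, and of protein-coding ones 45.9% and 24.7%. With equal read totals, 11 were called higher and 11 lower, beside 20.3% higher and 53.6% lower among all tested genes and 29.8% and 44.3% among protein-coding ones. The largest rises were NUDT21, a subunit of the CFIm complex that chooses polyadenylation sites and thereby favours the short NEAT1 form, at 1.70 (2131 ± 248 normalized counts in KD, n = 3, against 653 in WT); RBM3, a cold-shock RNA-binding protein, at 1.46; HNRNPK, which counters CFIm at that site, at 1.29; and the zinc-finger protein ZNF24 at 1.24. The largest falls were MATR3, a nuclear matrix RNA-binding protein, at -1.88; SS18L1, a chromatin-remodelling subunit, at -0.93; EWSR1, an RNA-binding protein of the FET family, at -0.47; and AKAP8L, a nuclear anchoring protein, at -0.42. MATR3 had 980 ± 150 normalized counts in KD (SD, n = 3), against 3588 in WT, under the more abundant of its 2 gene identifiers. The other identifier had 12, 13 and 4 reads in KD 1, 2 and 3, against 12 in WT, and reads that match both may have been lost from both. CPSF6 and CPSF7, the other CFIm subunits, did not pass the threshold, at -0.01 and -0.08.

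Proteins of nuclear speckles, where MALAT1 gathers, included rises and falls. Of 25 on the list 24 were tested, of which 13 were called higher, 4 lower and 7 neither, with a median of 0.44. That share is near those of protein-coding genes, 45.9% called higher and 24.7% lower, and is no result about speckle proteins as a group. With equal read totals, 5 were called higher and 11 lower, beside 29.8% and 44.3% of protein-coding genes, and the median was -0.12. The largest rises were BCLAF1, a serine-arginine-like RNA processing factor, at 1.58, and the splicing factors SRSF3 at 1.35, SRSF7 at 1.35 and SRSF1 at 1.31. The largest falls were SRRM2, a scaffold of the speckle, at -0.93; PNISR, a serine-arginine-rich protein, at -0.83; CLK4, a kinase of splicing factors, at -0.67; and ACIN1, an exon junction protein, at -0.44. SRRM2 had 29181 ± 2382 normalized counts in KD (SD, n = 3), against 55581 in WT. SON, the other speckle scaffold, did not pass the threshold, at -0.14. DDX39B had 2, 1 and 1 reads in KD 1, 2 and 3, against 7 in WT, and was not tested. Whether its reads were lost in mapping or counting cannot be seen from these values.

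The genes that cut and trim the 3′ end of NEAT1 and MALAT1 were mostly called higher in KD. Of 15 genes for RNase P and 3′ end factors, 13 were tested: 11 were called higher, none lower and 2 neither, with a median log2 difference of 1.28. Beside them, 31.4% of all tested genes and 45.9% of protein-coding ones were called higher. With equal read totals, 7 were called higher and 3 lower, and the median was 0.72. Beside them stood 20.3% and 53.6% of all tested genes and 29.8% and 44.3% of protein-coding ones. The largest rises were in the RNase P protein subunits POP7 at 2.43, POP4 at 2.14, RPP40 at 2.07 and RPP25L at 1.59. POP4 had 29957, 25512 and 30006 normalized counts in KD 1, 2 and 3, against 6438 in WT. ELAC2, which trims the tRNA end, was called higher at 0.50, and TRNT1, the enzyme that adds CCA to tRNA ends, did not pass the threshold, at -0.16. RPPH1, the RNA of RNase P, was listed at 0 in every library, as was RPP21. Whether their reads were lost in mapping or counting cannot be seen from these values.

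Transcription factors known to act on NEAT1 were mostly called higher in KD under the deposited scaling, but not at equal read totals. Protein-coding genes at large were also called higher less often at equal read totals. Of 11, all tested, 8 were called higher, 1 lower and 2 neither, with a median of 0.70, beside 31.4% higher and 36.3% lower among all tested genes and 45.9% and 24.7% among protein-coding ones. With equal read totals, 3 were called higher and 3 lower, beside 20.3% and 53.6% of all tested genes and 29.8% and 44.3% of protein-coding ones. The largest rises were BRCA1 at 1.31, the hypoxia factor HIF1A at 1.26, the oestrogen receptor ESR1 at 1.25 and EPAS1, the second hypoxia factor, at 1.14. HIF1A had 20821 ± 1203 normalized counts in KD (SD, n = 3), against 8687 in WT. ESR1 was barely read, with 52, 65 and 30 reads in KD 1, 2 and 3, against 16 in WT, and its call was lost without KD 1 (limma, 1.16, adjusted p = 0.121), without KD 2 (limma, 1.15, adjusted p = 0.113), in DESeq2 (adjusted p = 0.137) and at equal read totals (limma, 0.71, adjusted p = 0.214). RUNX1 was the 1 called lower, at -0.34, and its call was lost without KD 1 (limma, -0.31, adjusted p = 0.0979), without KD 3 (limma, -0.33, adjusted p = 0.0593), with TMM scaling (limma, -0.24, adjusted p = 0.0770) and by median of ratios (limma, -0.16, adjusted p = 0.188).

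**Figure D4:**
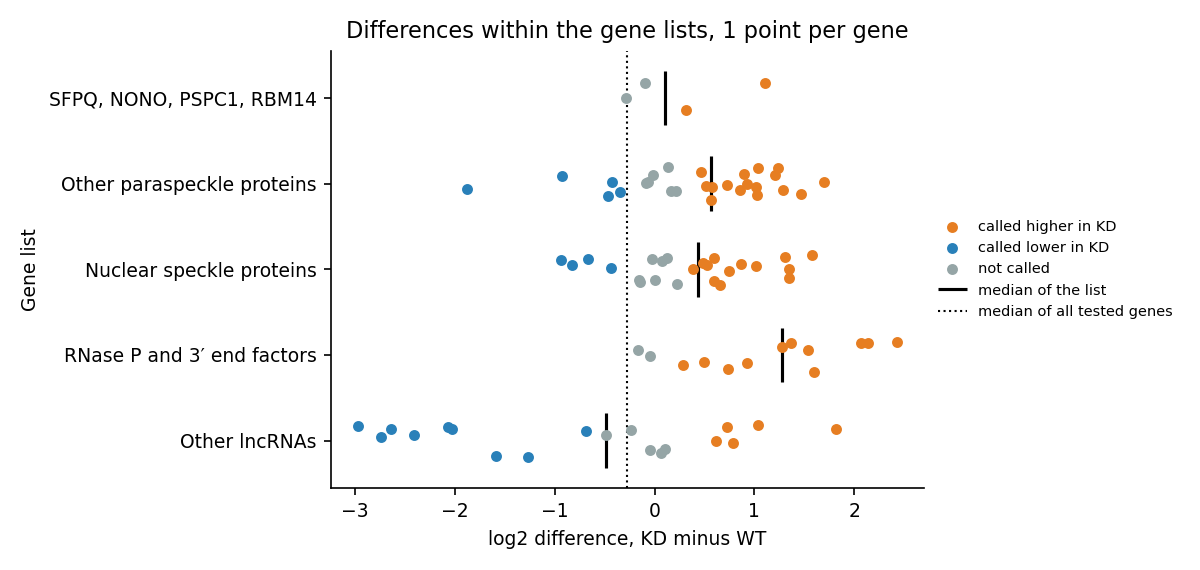
Log2 difference, KD minus WT, of each tested gene in 5 lists, coloured by its call in the limma fit; black bars are list medians and the dotted line is the median of all tested genes, -0.28. SFPQ, NONO, PSPC1 and RBM14 have a median of 0.11. The lists of other paraspeckle proteins, speckle proteins and RNase P genes have medians of 0.57, 0.44 and 1.28, and the other lncRNAs have a median of -0.49.

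Other well-known lncRNAs were a mixed group under the deposited scaling, and mostly called lower at equal read totals. Of 22 on the list 19 were tested, of which 5 were called higher, 9 lower and 5 neither, with a median of -0.49. Among all tested lncRNAs, 6.32% were called higher and 53.4% lower. With equal read totals, 3 were called higher and 14 lower, and the median was -1.05. Beside them stood 3.40% and 68.1% of all tested lncRNAs. The largest falls were FTX, from the X-inactivation centre, at -2.97; PVT1, the neighbour of MYC, at -2.74; JPX, also from the X-inactivation centre, at -2.64; and MIAT, a nuclear RNA, at -2.41. FTX had 1886, 2026 and 1519.7 normalized counts in KD 1, 2 and 3, against 14101 in WT. The largest rises were FIRRE, a nuclear RNA of the X chromosome, at 1.81, OIP5-AS1 at 1.04, DANCR at 0.79 and SNHG1, a host of small nucleolar RNAs, at 0.72. SNHG1 lost its call at equal read totals (limma, 0.16, adjusted p = 0.167). OIP5-AS1 had 8456 ± 617 normalized counts in KD (SD, n = 3), against 4108 in WT. TUG1 and NORAD, 2 abundant lncRNAs, did not pass the threshold, at -0.23 and 0.07.

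Of 18 neighbours of NEAT1 and MALAT1 on the list 17 were tested, of which 5 were called higher, 5 lower and 7 neither, with a median of -0.04. The 5 lower ones include TALAM1, whose reads cannot be told apart from those of MALAT1. Of all tested genes 31.4% were called higher and 36.3% lower, and of protein-coding ones 45.9% and 24.7%. The counts of the neighbours are small beside these shares and are no result about the locus. With equal read totals, 2 were called higher and 8 lower, beside 20.3% and 53.6% of all tested genes and 29.8% and 44.3% of protein-coding ones. Beside TALAM1, the falls were LTBP3, a binding protein of latent TGF-beta, at -2.07; POLA2, a subunit of the DNA polymerase that starts replication, at -1.74; EHBP1L1 at -0.86; and PCNX3 at -0.83. LTBP3 had 1481, 1698 and 1645 normalized counts in KD 1, 2 and 3, against 6727 in WT. FRMD8, the nearest listed gene before NEAT1, did not pass the threshold at 0.32. Among the genes called higher were ZNRD2 at 1.61, DPF2, a chromatin-remodelling subunit, at 0.76, the NF-kappa-B subunit RELA at 0.55 and the protease CAPN1 at 0.51. RELA and CAPN1 turned to -0.015 and -0.050 at equal read totals, neither called. TIGD3, SLC25A45, FAM89B, KCNK7, MAP3K11 and SIPA1 did not pass the threshold, with differences between -0.78 and 0.15. At equal read totals, SLC25A45, MAP3K11 and SIPA1 were called lower, at -0.94, -0.60 and -0.57.

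**Figure D5:**
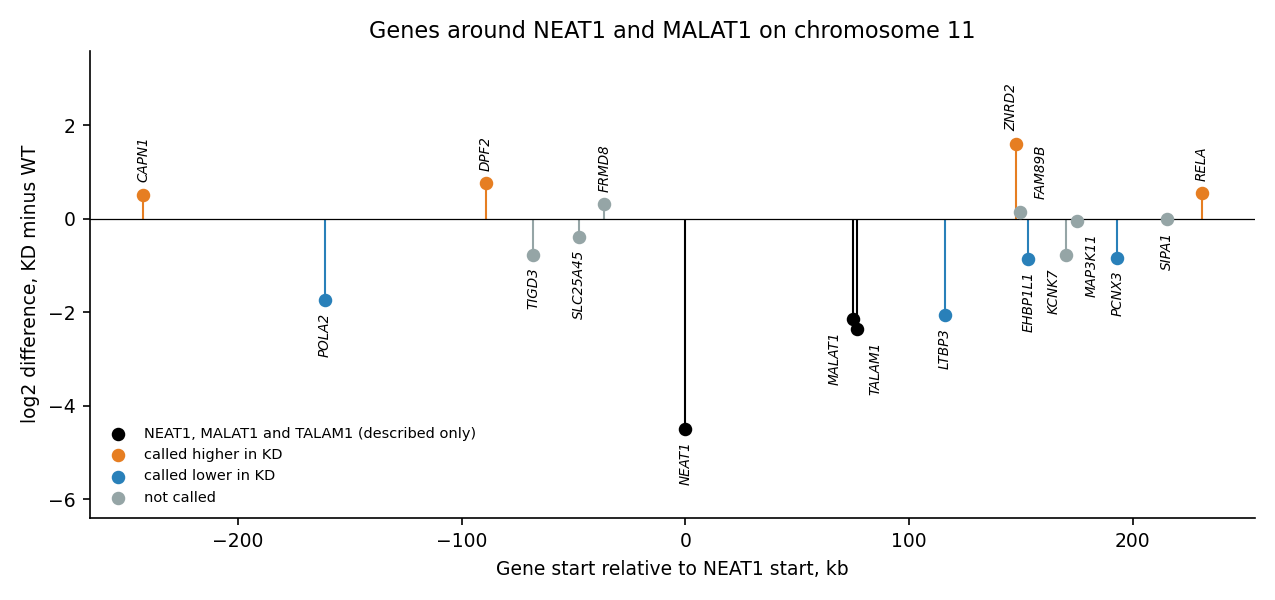
Log2 difference, KD minus WT, of the genes around NEAT1 that are named in the text, by the distance of their start from that of NEAT1 in kilobases, coloured by their call, with NEAT1, MALAT1 and its antisense TALAM1 in black. NEAT1 at -4.50 and MALAT1 at -2.15 stand between genes that were called higher, such as DPF2 at 0.76, lower, such as LTBP3 at -2.07, or neither.

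Of 13 genes of the imprinted domain around KCNQ1OT1, 7 had enough reads to be tested. Of these, 4 were called higher, 2 lower and 1 neither, with a median of 0.42. Beside them, 31.4% of all tested genes were called higher and 36.3% lower, and of protein-coding ones 45.9% and 24.7%. Counts of so few genes beside these shares are no result about the domain. With equal read totals, 3 were called higher and 2 lower, and the median was -0.10. Beside them stood 20.3% and 53.6% of all tested genes and 29.8% and 44.3% of protein-coding ones. CDKN1C, a cell-cycle inhibitor that KCNQ1OT1 silences on the paternal chromosome, rose by 3.24, from few reads: 44, 64 and 56 in KD 1, 2 and 3, against 4 in WT. NAP1L4, a histone chaperone, rose by 1.35, TSSC4, a factor of spliceosome assembly, by 1.52, and the tetraspanin CD81 by 0.42, which turned to -0.15 and was not called at equal read totals. OSBPL5, a lipid-transfer protein, was lower at -1.89 and the transporter SLC22A18 at -1.58. PHLDA2, an imprinted growth regulator, had 24, 22 and 14 reads in KD, against 12 in WT, and did not pass the threshold, at 0.42. In cells of 1 line without allele data, the parental copies cannot be told apart.

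The genes closest in profile to each RNA were sought over the 4 libraries among 13458 genes averaging 100 normalized counts or more, by Euclidean distance of the centred log2(value + 1) profiles. With 4 libraries and 1 WT among them, closeness mostly means the same difference and the same order among the KD libraries. For NEAT1 the closest named genes were IFNE, an epithelial interferon, at 0.11, and RN7SKP95, a pseudogene of a small nuclear RNA, at 0.26. IFNE had 71.1, 86.3 and 66.7 normalized counts in KD 1, 2 and 3, against 1638 in WT. For MALAT1 they were FKBP11, a folding enzyme of the secretory pathway, at 0.08, LINC01355 at 0.09, the kinase MAK at 0.10 and LINC01687 at 0.12. FKBP11 had 397, 437 and 312 normalized counts in KD, against 1692 in WT. For KCNQ1OT1 they were TARID, an antisense lncRNA, at 0.08 and SNORC, a proteoglycan of cartilage, at 0.20. TARID had 141, 188 and 90.05 normalized counts in KD, against 418 in WT. The remaining 7 of the 15 genes carry identifiers only.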

How the data were processed

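The submitters' processing notes name STAR 2.7.11b, featureCounts 2.0.6, DESeq2 and hg38; their order, the annotation release, the strand setting and the treatment of multiply mapping reads are not given, so genes with near-identical copies, such as HNRNPK, are uncertain. The authors deposited a signal value for each gene, a normalized read count, 1 file per library with 62696 rows. They were whole reads divided by 1 factor per library (100% whole within 0.001 reads), and the reads were recovered: 27868718 to 56216398 per library. Factors were 1.0551, 1.2869 and 0.8995 for KD 1, 2 and 3, against 0.9003 for WT. Exonic lengths and positions came from GENCODE 29, which held 95.1% of tested identifiers, and those of TALAM1 from RefSeq.

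Groups were compared by the two-sided limma-trend test (R 4.3.3, limma 3.58.1) of log2(normalized count + 1) for 23344 genes with a mean of at least 10, with Benjamini-Hochberg adjustment over all of them and a threshold of 0.05. Folds on this scale understate changes of low genes. The lone WT library is assumed to vary like the KD libraries. The script was tested on simulated data. edgeR 4.0.16 (quasi-likelihood) and DESeq2 1.42.0 on recovered reads, other scalings, pseudocounts, filters and leaving out each KD library were the alternatives. Equal read totals means counts scaled to 1 common total per library. Intervals are exact at 95%, Poisson or conditional binomial.

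The members and gene lists were chosen with earlier results of these data known. Named were all members, tested neighbours and KCNQ1-domain genes, up to 4 called rises and 4 falls per other list, and the 5 closest profiles per lncRNA; some listed genes enter the counts but are not reported here by name. Named outside that rule, after their values were seen, were CPSF6, CPSF7, SON, DDX39B, ELAC2, TRNT1, RPPH1, RPP21, TUG1, NORAD, LINC00632, CYTOR, STARD13-AS, KCNQ1 and RBM14-RBM4.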

Additional observations from a re-analysis of the deposited data

How the results depend on the processing

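With 1 WT library, an atypical WT value cannot be seen from these data, and values of genes with few reads, such as CDKN1C and ESR1, are limited by depth. No paired analysis was possible because WT has 1 library, so KD and WT share fewer than 2 replicate numbers. Scaling moved the median of all genes: by -0.56 at equal read totals, -0.46 by upper quartile, -0.62 at equal protein-coding totals and 0.18 by median of ratios. The split of calls moved with it: 7329 genes were called higher and 8465 lower as deposited, 4746 and 12509 at equal read totals, 4461 and 12991 at equal protein-coding totals. With a mean of at least 50, 5086 were called lower. Higher calls made up 46.4% of calls as deposited, 27.5% at equal read totals, 30.7% by upper quartile, 25.6% at equal protein-coding totals and 58.3% with a mean of at least 50. Of the listed genes, 61 were called higher and 26 lower as deposited, 34 and 52 at equal read totals, 32 and 52 at equal protein-coding totals, with 48 lower by upper quartile. Without 1 KD library, 6697 to 7055 genes were called higher and 7507 to 8131 lower, and 59 to 60 listed genes higher and 24 lower.

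Scaled to equal read totals, by upper quartile and to equal protein-coding totals, NEAT1 differed by -5.07, -4.97 and -5.13, MALAT1 by -2.71, -2.62 and -2.78, SFPQ by -0.85, -0.75 and -0.91, all called, PSPC1 by -0.25, -0.15 and -0.31, none called, and RBM14 by -0.66, -0.56 and -0.72, all called. KCNQ1OT1 differed by -2.21 at equal read totals and -2.27 at equal protein-coding totals. SFPQ, at -0.29, passed the threshold with a mean of at least 50, in edgeR and in DESeq2. PSPC1 lost its call with no filter (0.31) and in DESeq2 (0.32). RBM14 was 0.0075 with TMM and 0.088 by median of ratios, not called. Leaving out 1 KD library gave -4.61 to -4.39 for NEAT1, -2.27 to -1.98 for MALAT1, -1.88 to -1.39 for KCNQ1OT1, -0.32 to -0.26 for SFPQ, 1.04 to 1.14 for NONO, 0.28 to 0.37 for PSPC1 and -0.13 to -0.05 for RBM14. NONO kept its direction and call in all 14 alternatives.

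Of 57 other named genes, 8 turned round in at least 1 alternative. At equal read totals and equal protein-coding totals, CAPN1 was -0.050 and -0.11, CD81 -0.15 and -0.21, FAM89B -0.41 and -0.47, FRMD8 -0.25 and -0.31, PHLDA2 -0.10 and -0.16 and RELA -0.015 and -0.076. By upper quartile CD81 was -0.051, FAM89B -0.31, FRMD8 -0.15 and PHLDA2 -0.014. MAP3K11 was 0.062 with TMM and 0.14 by median of ratios, SIPA1 0.092 and 0.17, and without 1 KD library MAP3K11 ranged from -0.15 to 0.024 and SIPA1 from -0.090 to 0.056. Other calls were lost by ESR1 at equal read totals, by upper quartile, at equal protein-coding totals, with no filter and in DESeq2; by RUNX1 with TMM, by median of ratios and with no filter; by SNHG1 at equal read and protein-coding totals; by DANCR (0.16) and DPF2 (0.14) at equal protein-coding totals; by RELA and CAPN1 by upper quartile; by AKAP8L (-0.24) by median of ratios; and by CAPN1, CD81, EHBP1L1 and EPAS1 with no filter. Calls were gained by SLC25A45, MAP3K11 and SIPA1, all lower, at equal read totals, by upper quartile and at equal protein-coding totals. FRMD8 gained a call as higher with TMM, by median of ratios, in edgeR and with a mean of at least 50. The cause of these changes was not tested.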
